A study of Canis lupus familiaris with 23 samples.

Results

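The comparison sets dog hair-follicle organoids differentiated without Forskolin against organoids differentiated with it, in a medium that in both cases lacked Noggin and R-Spondin-1. Its libraries were chosen by their labels alone: 4 of the 23 libraries of the series, with 2 in each group, compared within replicate number. The study collected dog skin tissue, organoids in expansion medium and organoids in differentiation medium. It measured RNA abundance by CEL-seq2, here on bulk samples, which primes RNA at the 3′ end and tallies it per gene. Epidermal organoids are clusters of keratinocytes grown in a gel. Of the 6 libraries in differentiation medium, 2 lacked Noggin, R-Spondin-1 and Forskolin, 2 lacked only Noggin and R-Spondin-1, so that Forskolin, which the labels name only where it was left out, remained, and 2 had the complete differentiation medium, which serves here only as a further level to read the values against. All 6 were bulk cells of organoids from hair follicles, at passages 3 to 6, taken 7 days into culture. The labels give no Forskolin dose and no dog, and do not say whether replicates 1 and 2 are separate animals, cultures or preparations, so the p-values measure the spread between libraries, which may be technical.

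Forskolin is a plant diterpene that switches on adenylyl cyclase, the enzyme that makes cyclic AMP. Cyclic AMP releases the catalytic subunits of protein kinase A, which phosphorylate CREB and related factors at cAMP response genes, among them NR4A1, CREM, PDE4D and SIK1. Noggin blocks BMP ligands and R-Spondin-1 strengthens Wnt signalling. In the epidermis, basal keratinocytes rest on a basement membrane through integrins, and as they differentiate they make first early keratins and involucrin and then the proteins of the cornified envelope, such as loricrin and filaggrin.

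Depth was modest. Counts assigned to genes came to 468884 and 235971 in the libraries without Forskolin, replicates 1 and 2, against 431103 and 405354 in those with it. A gene with no count could therefore have stood at up to 6.87 and 12.7 CPM (counts scaled to a common library total) without Forskolin, against 7.14 and 7.34 CPM with it, for 3 counts; such limits and the intervals given for single libraries cover counting error only. Mitochondrially encoded genes took 17.2 and 8.05% of counts without Forskolin, against 15.1 and 8.63% with it. Replicate 1 was thus the higher in both groups. The keratinocyte markers KRT5, KRT14, TP63, ITGA6 and COL17A1 were present in all 4 libraries, with KRT14, a basal keratin, at 43340 and 47400 CPM without Forskolin, against 44960 and 32890 CPM with it.

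The replicate number divided the libraries more than the medium did. Over 2381 genes the first principal component held 60.3% of the variance and put the 3 libraries numbered 1 between -24.7 and -20.6, and the 3 numbered 2 between 17.2 and 24.9. The second held 20.8% and set the library without Forskolin of replicate 2 apart, at -26.7, against 6.18 for the library with Forskolin of the same number. Libraries of the same number correlated at 0.960 in replicate 1 and 0.867 in replicate 2, and the libraries of a group at 0.770 without Forskolin and 0.771 with it (Pearson's r of log2 CPM across genes, which are not independent replicates).

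**Figure D1:**
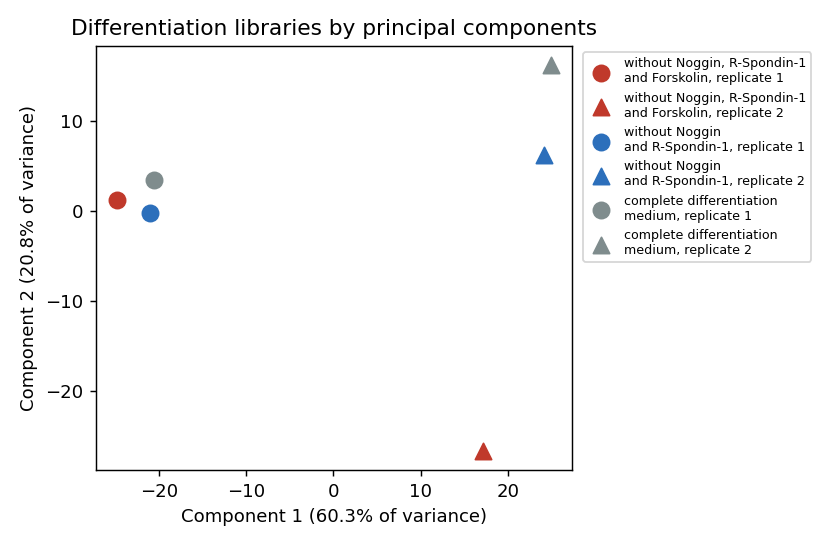
Position of the 6 differentiation libraries on the first 2 principal components of log2 CPM over 2381 genes; axes give component scores, colours the medium and shapes the replicate number. Circles (replicate 1) lie together on the left, and the triangle of the library without Forskolin lies at -26.7 on the second component, below the other libraries of replicate 2.

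No gene passed the test of Forskolin withdrawal. Of 9717 genes tested with edgeR's quasi-likelihood test and Benjamini-Hochberg adjustment, 0 were called at an adjusted p under 0.05 (0.0% of those tested), and the smallest adjusted p was 1. At an unadjusted p under 0.05 there were 329 genes, 147 higher without Forskolin (1.51%) and 182 lower (1.87%). DESeq2 called 0 genes and had 245 at an unadjusted p under 0.05, and limma-voom called 0 and had 315. None of these fits had a term for the replicate number, so their spread within a group includes the difference between the numbers. With such a term the edgeR fit of 23 libraries called 0 and had 384 at an unadjusted p under 0.05. The median log2 change over all genes tested was 0.00, and the median gene had 26 counts summed over the 4 libraries. For every gene named below the adjusted p was therefore 1, and the values describe these libraries.

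The differences found in replicate 1 were not those found in replicate 2. Over the 2370 genes with a mean of at least 50 CPM, the difference in log2(CPM + 10), without minus with Forskolin, had an SD of 0.41 in replicate 1 and 0.75 in replicate 2. Counting error alone gave a median SE of 0.30 and 0.36 for the plain log2 ratio. That ratio lacks the added 10 CPM, which shrinks differences, so the SD and the SE are not on the same scale. The same genes differed between the medium with Forskolin but lacking Noggin and R-Spondin-1 and the complete medium with an SD of 0.43 in replicate 1 and 0.61 in replicate 2. Across those genes the differences of the 2 replicate numbers correlated at r = -0.04 and rho = -0.04, a description across genes. A difference of at least 2-fold was reached by 65 genes in replicate 1 and 398 in replicate 2. Only 10 of them reached it in the same direction in both, 3 higher and 7 lower without Forskolin, and 11 reached it in opposite directions.

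**Figure D2:**
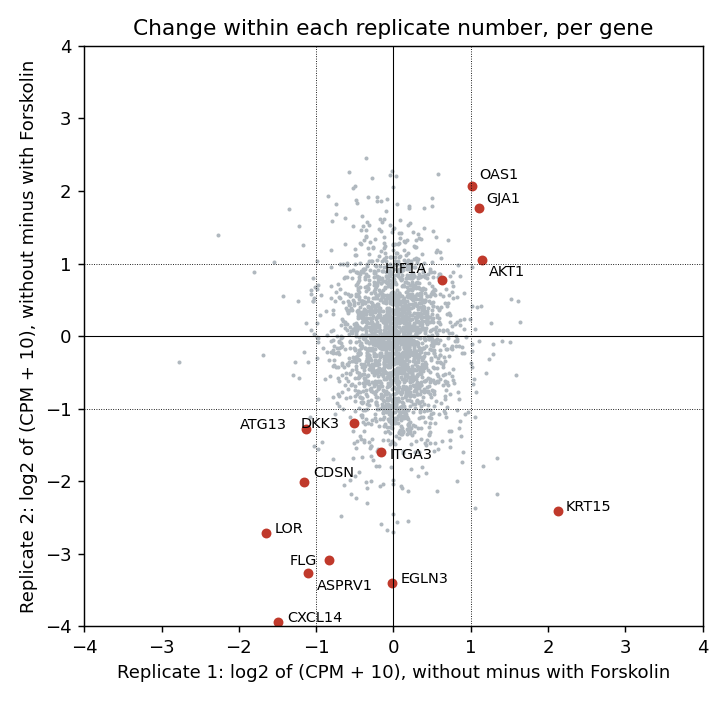
Each point is 1 of 2370 genes with a mean of at least 50 CPM; the axes give the difference in log2(CPM + 10), without minus with Forskolin, within replicate 1 and within replicate 2, and dotted lines mark 2-fold. The cloud is taller than it is wide (SD 0.75 against 0.41) and has no slope; labelled genes are described in the text.

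As a background for all counts that follow, 4403 genes had a mean of at least 20 CPM over the 4 libraries. Of these, 1033 (23.5%) were higher without Forskolin within both replicate numbers and 1114 (25.3%) were lower within both. Both libraries without Forskolin stood above both with it for 432 genes (9.81%) and below both for 498 (11.3%). A list of genes is read against these shares.

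Most cAMP response genes had few counts in every library, with or without Forskolin. The list held 28 genes, of which 24 were in the differentiation tables, 19 were tested and only 4 averaged 20 CPM or more. NR4A1, an orphan nuclear receptor induced by CREB, had 0 counts in both libraries without Forskolin, against 0 and 2.45 CPM with it. CREM, which encodes a repressor isoform induced by cAMP, stood at 4.58 and 0 CPM without Forskolin, against 7.14 and 2.45 CPM with it. SIK1, a kinase induced by cAMP that feeds back on CREB coactivators, stood at 4.58 and 8.44 CPM without Forskolin, against 2.38 and 9.79 CPM with it. These are between 0 and 4 counts per library, under or near the 3-count limits, so a difference was not detectable at this depth. RGS2, a regulator of G protein signalling, and PDE4B, a phosphodiesterase that breaks down cAMP, were at 0 to 4.90 CPM in all 4 libraries.

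Among the 4 response genes with 20 CPM or more, none lay on the same side in both replicate numbers. JUNB, an AP-1 transcription factor, stood at 341.0 and 236.3 CPM without Forskolin, against 128.6 and 781.0 CPM with it. It was thus higher without Forskolin in replicate 1, with a log2 ratio of 1.41 (95% interval 0.95 to 1.88), and lower in replicate 2, at -1.72 (-2.16 to -1.31); these intervals are exact Clopper-Pearson intervals of the 2 libraries' counts. AREG, an EGF family ligand, stood at 32.0 and 21.1 CPM without Forskolin, against 14.3 and 24.5 CPM with it, and its ranges overlapped. ID1, a target of BMP signalling as well, stood at 153.3 and 46.4 CPM without Forskolin, against 107.1 and 61.2 CPM with it. The summed level of the 24 genes was 599.7 and 388.2 CPM without Forskolin, against 316.6 and 1033 CPM with it, so the groups overlapped. The median log2 change of the 19 tested was -0.65, and that of the 4 with 20 CPM or more was 0.04, against 0.00 over all genes tested.

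The genes that make, sense and destroy cAMP were likewise low. Of 41 adenylyl cyclases, protein kinase A subunits, phosphodiesterases and exchange factors, 34 were in the tables, 22 were tested and 4 averaged 20 CPM or more. Of those 4, 1 was higher and 1 lower within both replicate numbers, against 23.5% and 25.3% over all genes. PRKACB, a catalytic subunit of protein kinase A, stood at 13.7 and 4.22 CPM without Forskolin, against 0 and 2.45 CPM with it, which is 6 and 1 counts against 0 and 1. PDE4D, a phosphodiesterase that cAMP itself induces, was at 0 CPM in both libraries without Forskolin, against 2.38 and 4.90 CPM with it, or 1 and 2 counts. Both patterns lie at the counting limit.

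OAS1 had the smallest p of the interferon response genes tested. OAS1, an enzyme that makes 2′-5′ oligoadenylates on sensing double-stranded RNA, stood at 87.0 and 329.1 CPM without Forskolin, against 38.1 and 71.0 CPM with it. Both libraries without Forskolin were above both with it, and replicate 2 was the higher of each group. The log2 ratio was 1.19 (95% interval 0.31 to 2.13) in replicate 1 and 2.21 (1.58 to 2.88) in replicate 2, and the fitted log2 change was 1.89 ± 0.60 (SE) with an unadjusted p of 0.00456 and an adjusted p of 1 by edgeR's quasi-likelihood test. In complete medium OAS1 stood at 47.5 and 81.7 CPM, close to the libraries that lacked only Noggin and R-Spondin-1.

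Of the other interferon response genes named, ISG15 had opposite signs in the replicate numbers and 4 were higher without Forskolin in both. ISG15, UBE2L6, IFIH1 and CMPK2 were named after their values were seen, so this tally is only a description. ISG15, a ubiquitin-like modifier, stood at 70.9 and 257.4 CPM without Forskolin, against 88.1 and 49.0 CPM with it. It was high in the single library without Forskolin of replicate 2 and the groups overlapped. UBE2L6, which conjugates ISG15, stood at 43.5 and 67.5 CPM without Forskolin, against 26.2 and 34.3 CPM with it, without overlap, at a log2 change of 0.84 ± 0.45. Its intervals, from -0.41 to 1.95 in replicate 1 and from -0.15 to 2.12 in replicate 2, both held 0. IFIH1, a cytosolic RNA sensor, stood at 18.3 and 29.5 CPM without Forskolin, against 11.9 and 4.90 CPM with it, which is 8 and 7 counts against 5 and 2. In replicate 1 the interval of IFIH1, from -1.17 to 2.58, held 0. IFI44 stood at 2.29 and 29.5 CPM without Forskolin, against 0 and 2.45 CPM with it, or 1 and 7 counts against 0 and 1. CMPK2, a mitochondrial nucleotide kinase, stood at 9.15 and 33.7 CPM without Forskolin, against 2.38 and 14.7 CPM with it, and both intervals held 0.

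Over the whole interferon list the members differed in direction. Of 40 genes, 36 were in the tables, 20 were tested and 7 averaged 20 CPM or more; of those 7, 2 were higher within both numbers, 1 was lower within both and 4 were mixed. Both libraries without Forskolin were above both with it for 2 of the 7, OAS1 and UBE2L6, against 9.81% over all genes. Over all genes 23.5% were higher and 25.3% lower within both numbers. At an unadjusted p under 0.05, 3 of the 20 were higher and 0 lower, against 1.51% and 1.87% of all genes tested. The summed level was 741.6 and 1110 CPM without Forskolin, against 618.9 and 543.5 CPM with it and 656.1 and 565.1 CPM in complete medium. The median difference of the 7 was 0.27 in replicate 1 and -0.17 in replicate 2 on the log2(CPM + 10) scale. The antigen presentation genes, which interferon also drives, had 4 members at 20 CPM or more, of which 1 was higher and 2 were lower within both numbers.

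The differentiation genes as a list had no common direction. Of 56 genes, 43 were in the tables, 42 were tested and 25 averaged 20 CPM or more. Of those 25, 4 were higher and 6 lower within both numbers and 15 were mixed, against 23.5% and 25.3% over all genes, and none separated the groups without overlap. At an unadjusted p under 0.05, 0 of the 42 were higher and 2, FLG and KRT78, lower. The summed level was 6161 and 26350 CPM without Forskolin, against 5466 and 26160 CPM with it. The epidermal lipid barrier list had 9 members at 20 CPM or more, with 1 higher and 2 lower within both numbers.

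The late envelope genes LOR, FLG and CDSN were lower without Forskolin within both replicate numbers, and are described as single genes; CDSN was named after its values were seen. LOR, loricrin, the main protein of the envelope, stood at 2.29 and 71.7 CPM without Forskolin, against 28.6 and 526.4 CPM with it. FLG, filaggrin, which bundles keratin filaments, stood at 2.29 and 50.6 CPM without Forskolin, against 11.9 and 504.3 CPM with it. CDSN, corneodesmosin, an adhesive protein of the outermost layer, stood at 13.7 and 147.7 CPM without Forskolin, against 42.9 and 626.7 CPM with it. In all 3 the library without Forskolin was the lower of its number, while replicate 2 exceeded replicate 1 in either medium, so that the pooled groups overlapped.

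The counting intervals set how far each replicate number carries this. In replicate 2 the log2 ratio was -2.88 (95% interval -3.68 to -2.16) for LOR, -3.32 (-4.29 to -2.48) for FLG and -2.09 (-2.64 to -1.57) for CDSN, well beyond counting error. In replicate 1, LOR rested on 1 count without Forskolin against 12 with it, FLG on 1 against 5 and CDSN on 6 against 18. There the log2 ratio was -3.64 (-9.06 to -0.88) for LOR, -2.38 (-7.94 to 0.78) for FLG and -1.64 (-3.26 to -0.25) for CDSN. Only the interval of FLG held 0. The fitted log2 change was -3.11 ± 1.62 for LOR, -3.52 ± 1.33 for FLG and -2.15 ± 1.38 for CDSN, and each adjusted p was 1 by edgeR's quasi-likelihood test. When the library with Forskolin of replicate 2 was left out, the fitted log2 changes were 0.15 for LOR, 0.89 for FLG and 0.80 for CDSN. That setting compared both replicate numbers without Forskolin with replicate 1 alone with it. Replicate 2 was the higher for these genes, so those values mix the medium with the replicate number. In complete medium LOR stood at 6.55 and 463.0 CPM, FLG at 4.91 and 255.3 CPM and CDSN at 22.9 and 823.8 CPM. In replicate 2 the complete medium was thus near the library with Forskolin for LOR, above it for CDSN and between the others for FLG, and in replicate 1 it lay between the others for all 3.

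ASPRV1, KPRP, CSTA and SPINK9 were named because they were called lower when no filter on low counts was used, so their direction was fixed by that choice and is a description. ASPRV1, the protease that processes filaggrin, stood at 4.58 and 29.5 CPM without Forskolin, against 21.4 and 372.1 CPM with it. KPRP, a proline-rich keratinocyte protein, stood at 0 and 4.22 CPM without Forskolin, against 4.76 and 93.0 CPM with it and 0 and 13.6 CPM in complete medium. CSTA, the protease inhibitor cystatin A, stood at 6.87 and 38.0 CPM without Forskolin, against 4.76 and 271.7 CPM with it. CSTA was thus not lower in replicate 1. KRT78, a keratin of differentiated layers, had counts in 1 of the 4 libraries, the library with Forskolin of replicate 2, at 58.8 CPM. SPINK9, a skin protease inhibitor, stood at 11.4 and 105.5 CPM without Forskolin, against 14.3 and 472.5 CPM with it. ALOX12B, a lipoxygenase of the epidermal lipid barrier, stood at 0 and 4.22 CPM without Forskolin, against 0 and 53.9 CPM with it.

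Involucrin and the earlier genes did not share the pattern. IVL, an early envelope precursor, stood at 1831 and 12370 CPM without Forskolin, against 1816 and 12530 CPM with it, so that the medium made less difference than the replicate number. Its log2 ratio was 0.01 (95% interval -0.13 to 0.16) in replicate 1 and -0.02 (-0.08 to 0.05) in replicate 2. KRT10, the first suprabasal keratin, stood at 631.7 and 320.6 CPM without Forskolin, against 528.5 and 384.4 CPM with it, and the groups overlapped. KRT1, its partner, was at 0 CPM in both libraries without Forskolin, against 2.38 and 2.45 CPM with it, or 1 count each.

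When no filter on low counts was used, 18 of 16940 genes (0.106%) passed an adjusted p of 0.05 in edgeR's quasi-likelihood test, 1 higher and 17 lower without Forskolin. LOR, FLG, CDSN, ASPRV1, KPRP, CSTA and SPINK9 were among the 17, along with KRT23, CXCL14, EGLN3, IGF2, APLF, ATP6V1C2, C17H1orf68 and 3 provisional loci. In that fit the spread was estimated as a single trend for all genes, with an infinite prior, whereas with the filter each gene kept a spread of its own with a prior of 9.92 degrees of freedom. With the replicate number of the 6 differentiation libraries added to the unfiltered fit, 10 remained: ACTA2, APLF, ASPRV1, ATP6V1C2, CXCL14, EGLN3, FLG, IGF2, KPRP and LOR. These names were chosen after their values were seen. A gene that remained need not have differed in both numbers. IGF2 stood at 0 and 4.22 CPM without Forskolin, against 0 and 134.7 CPM with it, and EGLN3 had 3 counts in each library of replicate 1. LOR, ASPRV1 and CXCL14 were at least 2-fold lower in both numbers.

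**Figure D3:**
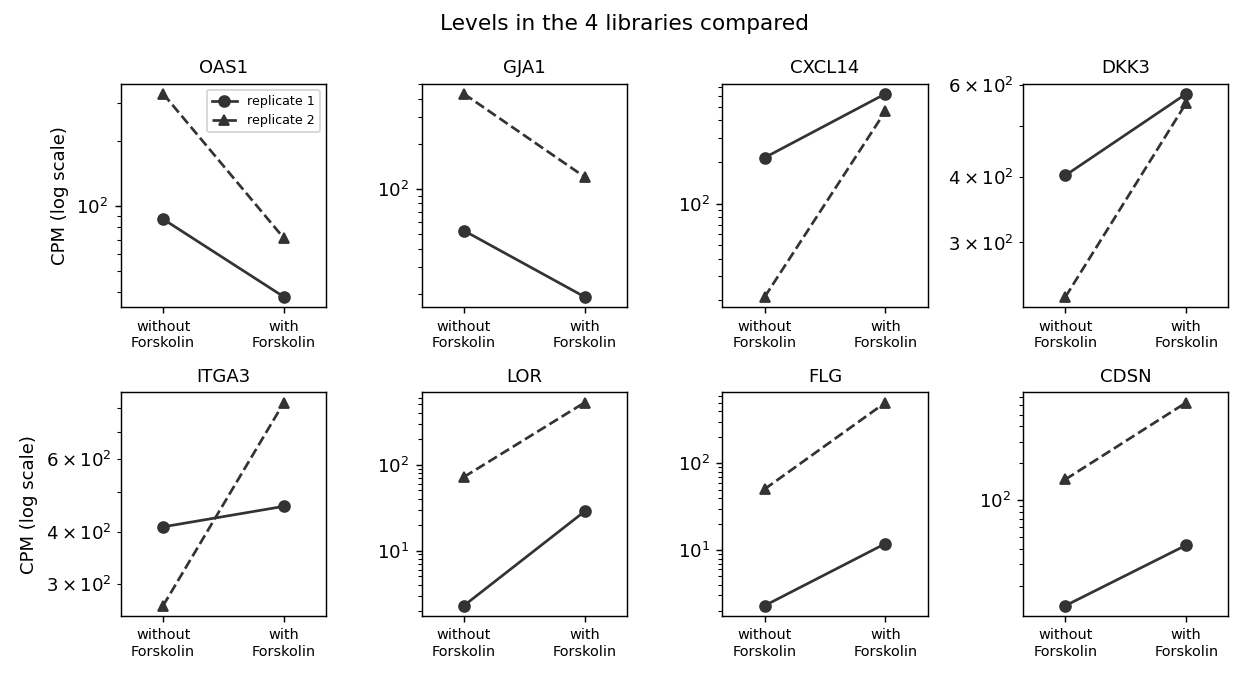
CPM (log scale) of 8 genes in the 4 libraries compared, with the libraries without Forskolin on the left of each panel and lines joining libraries of the same replicate number. The lines of OAS1 and GJA1 fall to the right and those of CXCL14, DKK3, ITGA3, LOR, FLG and CDSN climb to the right in both replicate numbers, while ITGA3 in replicate 1 is nearly flat (412.0 against 461.8 CPM).

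CXCL14 had the smallest p of the cytokines and chemokines tested. CXCL14, a chemokine made by epithelia, stood at 215.1 and 21.1 CPM without Forskolin, against 623.7 and 467.6 CPM with it. Both libraries without Forskolin were below both with it. The log2 ratio was -1.54 (95% interval -1.89 to -1.19) in replicate 1 and -4.47 (-6.11 to -3.22) in replicate 2, and the fitted log2 change was -2.14 ± 0.70 with an unadjusted p of 0.00616 and an adjusted p of 1 by edgeR's quasi-likelihood test. In complete medium CXCL14 stood at 70.4 and 286.0 CPM, so replicate 1 without Forskolin was above the complete medium of its number.

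CXCL8, a neutrophil chemokine, stood at 13.7 and 12.7 CPM without Forskolin, against 23.8 and 75.9 CPM with it, also without overlap. Its interval in replicate 1, from -2.54 to 0.81, held 0. Of 31 epithelial cytokines and chemokines, 22 were in the tables, 11 were tested and 6 averaged 20 CPM or more. Among the 6, 3 were lower within both numbers and 0 higher, against 25.3% and 23.5% over all genes. The same count of 3 stood below without overlap, against 11.3%. With 6 members these counts are only a description. The median difference of the 6 was -0.26 in replicate 1 and -1.03 in replicate 2, and their median fitted log2 change was -0.56, against 0.00 over all genes.

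DKK3, a member of the dickkopf family of secreted proteins, stood at 402.8 and 236.3 CPM without Forskolin, against 576.1 and 553.3 CPM with it. Both libraries without Forskolin were below both with it, and the 2 with Forskolin were close to the complete medium, at 546.5 and 466.4 CPM. The log2 ratio was -0.52 (95% interval -0.80 to -0.23) in replicate 1 and -1.23 (-1.68 to -0.80) in replicate 2, so neither interval held 0. The fitted log2 change was -0.81 ± 0.38, with an unadjusted p of 0.0466 and an adjusted p of 1 by edgeR's quasi-likelihood test.

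The Wnt targets AXIN2 and CCND1 had few or no counts. AXIN2 had 0 counts in all 4 libraries, and CCND1, cyclin D1, was at 0 CPM in both libraries without Forskolin, against 11.9 and 12.2 CPM with it, which is 0 counts against 5 each. The fitted log2 change of CCND1 was -6.84 ± 2.28, with an unadjusted p of 0.00701 by edgeR's quasi-likelihood test. The upper limits of its intervals, 0.07 and 0.91, were above 0. Of 39 Wnt and R-spondin genes 31 were in the tables, 21 were tested and 4 averaged 20 CPM or more, of which 1 was higher and 2 were lower within both numbers. At an unadjusted p under 0.05, 0 of the 21 were higher and 2, CCND1 and DKK3, lower, against 1.51% and 1.87% of all genes tested. Of the BMP genes, BMP7, a ligand, stood at 70.9 and 113.9 CPM without Forskolin, against 90.5 and 230.1 CPM with it, the lower of its number each time, and BMP4 was at 0 CPM in both libraries without Forskolin, against 2.38 and 9.79 CPM with it. The BMP list had 5 members at 20 CPM or more, with 1 higher and 2 lower within both numbers, against 23.5% and 25.3% over all genes. NOTCH1, a receptor, stood at 25.2 and 33.7 CPM without Forskolin, against 11.9 and 17.1 CPM with it, and both intervals held 0. HES1, a Notch target, was not analysed here.

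ITGA3, the α3 integrin chain that binds laminin, stood at 412.0 and 265.8 CPM without Forskolin, against 461.8 and 822.6 CPM with it. Both libraries without Forskolin were below both with it, but in replicate 1 the log2 ratio of -0.16 had a 95% interval from -0.47 to 0.14, while in replicate 2 it was -1.63 (-2.04 to -1.24). The fitted log2 change was -0.91 ± 0.51 with an unadjusted p of 0.0869. In complete medium ITGA3 stood at 664.3 and 1215 CPM.

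The other adhesion genes differed among themselves. ITGA6, the α6 chain of the hemidesmosome, stood at 645.4 and 443.0 CPM without Forskolin, against 726.1 and 497.0 CPM with it, and both intervals held 0. COL17A1, a hemidesmosomal collagen, stood at 908.6 and 392.4 CPM without Forskolin, against 702.3 and 1398 CPM with it. Its log2 ratio was 0.37 (95% interval 0.15 to 0.59) in replicate 1 and -1.83 (-2.17 to -1.51) in replicate 2, opposite in sign and both beyond counting error. CD44, a hyaluronan receptor, stood at 132.7 and 219.4 CPM without Forskolin, against 183.3 and 401.5 CPM with it, the lower of its number each time. ITGB4, the β4 chain of the hemidesmosome, had at most 2 counts in any of the 4 libraries and was not tested.

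Of 29 integrin and laminin genes all 29 were in the tables, 26 were tested and 19 averaged 20 CPM or more. Of the 19, 10 were lower and 2 higher within both numbers and 7 were mixed, and 6 stood below without overlap and 2 above, against background shares of 25.3%, 23.5%, 11.3% and 9.81%. The median difference was -0.16 in replicate 1 and -0.32 in replicate 2, against 0.02 and -0.05 over the 4403 genes. None of the 26 reached an unadjusted p under 0.05.

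The basal keratins KRT5 and KRT15 differed in how the replicate numbers compared. KRT5 stood at 21470 and 13990 CPM without Forskolin, against 16560 and 6375 CPM with it, the higher of its number each time. KRT15, a keratin of basal and follicle stem cells, stood at 1231 and 50.6 CPM without Forskolin, against 273.8 and 313.4 CPM with it. It was thus higher without Forskolin in replicate 1, at a log2 ratio of 2.17 (95% interval 1.88 to 2.47), and lower in replicate 2, at -2.63 (-3.62 to -1.78), and its fitted log2 change of 1.14 ± 0.94 describes neither. KRT15 stood at 1489 and 588.9 CPM in complete medium, so that the library with Forskolin of replicate 1 was also low for its number. TP63, the transcription factor of the epidermal lineage, stood at 57.2 and 50.6 CPM without Forskolin, against 99.98 and 53.9 CPM with it.

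KRT17, a keratin of wounds and of the outer root sheath, stood at 2547 and 5717 CPM without Forskolin, against 2309 and 2306 CPM with it, without overlap, mainly through replicate 2. S100A16, a calcium-binding protein, stood at 265.5 and 535.8 CPM without Forskolin, against 204.7 and 205.6 CPM with it, again without overlap. KRT16, a hyperproliferation keratin, stood at 1426 and 7375 CPM without Forskolin, against 1416 and 6811 CPM with it. KRT6A stood at 8194 and 17690 CPM without Forskolin, against 8794 and 9993 CPM with it, and was higher only in replicate 2. Of 15 wound genes at 20 CPM or more, 4 were higher and 2 lower within both numbers and 2 stood above without overlap. Of 14 basal genes, 2 were higher and 7 lower within both, with 1 above and 1 below. Over all genes the shares were 23.5% higher and 25.3% lower within both, 9.81% above and 11.3% below. Keratins are near-identical copies in part, and the way shared reads were counted is not given in the sources used here, so single keratin values are uncertain.

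Cell cycle genes followed the replicate number. S phase genes summed to 1474 and 206.7 CPM without Forskolin, against 1107 and 279.1 CPM with it. G2 and mitosis genes summed to 2346 and 704.6 CPM without Forskolin, against 2371 and 837.3 CPM with it. In both media replicate 1 was well above replicate 2. Of 15 S phase genes at 20 CPM or more, 4 were higher and 2 lower within both numbers, with a median difference of 0.59 in replicate 1 and -0.32 in replicate 2. Of 17 G2 and mitosis genes, 3 were higher and 4 lower. Over all genes the shares were 23.5% and 25.3%. MKI67, a proliferation marker, had at most 3 counts in any of the 4 libraries and was not tested. CCNE1, cyclin E1, stood at 16.02 and 16.9 CPM without Forskolin, against 7.14 and 7.35 CPM with it, at 3 to 7 counts a library.

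**Figure D4:**
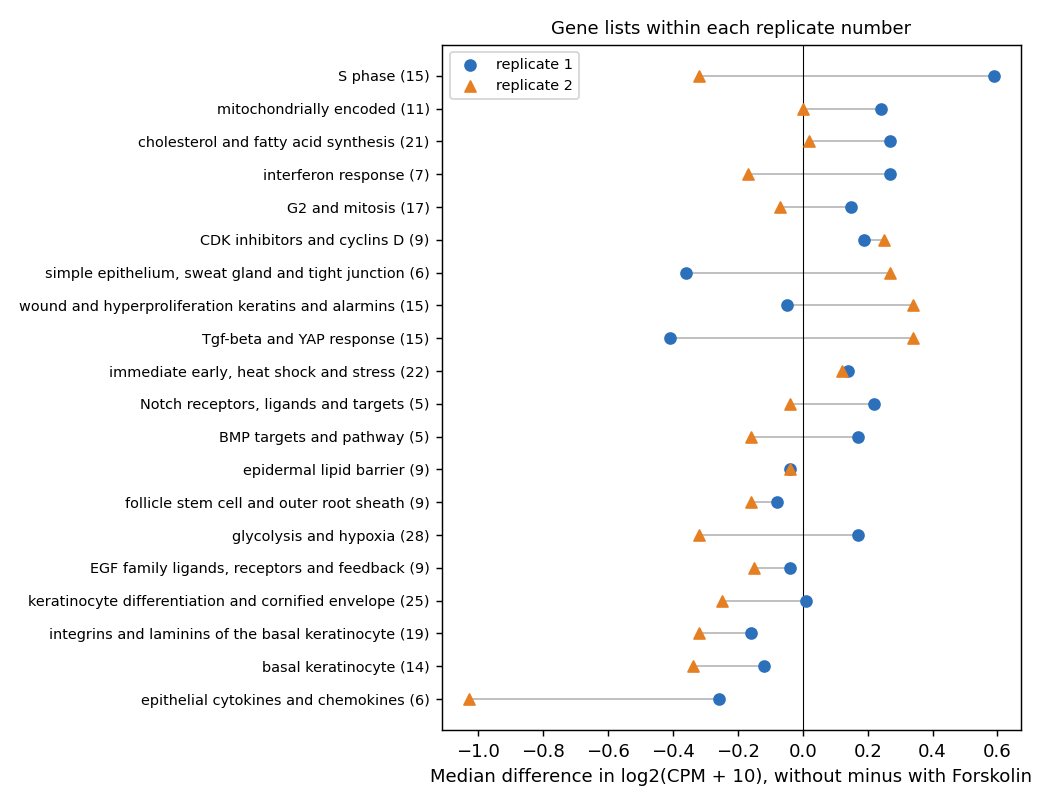
Median difference in log2(CPM + 10), without minus with Forskolin, of the gene lists with at least 5 members averaging 20 CPM or more (number in brackets), in replicate 1 (circles) and replicate 2 (triangles). Cytokines and chemokines lie left of 0 in both (-0.26 and -1.03), as do integrins and laminins (-0.16 and -0.32), while S phase genes lie on opposite sides (0.59 and -0.32).

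Of 22 immediate early, heat shock and stress genes at 20 CPM or more, 11 were higher and 4 lower within both numbers, against 23.5% and 25.3% over all genes. Among the 22, 3 stood above without overlap, against 9.81% over all genes. Their median difference was 0.14 in replicate 1 and 0.12 in replicate 2. NQO1, an oxidoreductase of the NRF2 response, stood at 8327 and 2046 CPM without Forskolin, against 6623 and 6206 CPM with it, higher in replicate 1 and lower in replicate 2. Of 21 genes of cholesterol and fatty acid synthesis, 9 were higher and 4 lower within both, with a median difference of 0.27 in replicate 1 and 0.02 in replicate 2. MVK, mevalonate kinase, stood at 20.6 and 12.7 CPM without Forskolin, against 9.52 and 2.45 CPM with it. PLIN2, which coats lipid droplets, stood at 18.3 and 25.3 CPM without Forskolin, against 4.76 and 4.90 CPM with it. Both lacked overlap, and both rested on at most 9 counts a library.

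Of 28 glycolysis and hypoxia genes, 7 were higher and 6 lower within both numbers, against 23.5% and 25.3% over all genes. HIF1A and PTGR1 were named after their values were seen, so their likeness between the replicate numbers is only a description. HIF1A, the hypoxia-inducible transcription factor, stood at 196.8 and 278.5 CPM without Forskolin, against 123.8 and 159.1 CPM with it, without overlap, and its log2 ratio was 0.67 (95% interval 0.16 to 1.19) in replicate 1 and 0.81 (0.29 to 1.32) in replicate 2. EGLN3, a prolyl hydroxylase that acts on HIF proteins and is itself induced by hypoxia, stood at 6.87 and 50.6 CPM without Forskolin, against 7.14 and 634.1 CPM with it. Its log2 ratio was -3.65 (-4.62 to -2.82) in replicate 2, and in replicate 1, on 3 counts in each library, -0.06 (-2.96 to 2.84), so a difference was not detectable there. PTGR1, a prostaglandin and leukotriene reductase, stood at 1176 and 1101 CPM without Forskolin, against 733.2 and 697.7 CPM with it. It had nearly the same log2 ratio in both numbers, 0.68 (0.48 to 0.89) and 0.66 (0.41 to 0.91), and a fitted log2 change of 0.67 ± 0.35 with an unadjusted p of 0.0709. In complete medium PTGR1 stood at 957.2 and 1229 CPM, above the libraries that lacked only Noggin and R-Spondin-1.

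EGF feedback genes and Tgf-beta response genes followed. DUSP6, a phosphatase of ERK, stood at 325.0 and 59.1 CPM without Forskolin, against 480.9 and 303.6 CPM with it, the lower of its number each time, with log2 ratios of -0.57 (95% interval -0.89 to -0.25) and -2.36 (-3.27 to -1.56). ETV5, a transcription factor induced by ERK, stood at 25.2 and 4.22 CPM without Forskolin, against 33.3 and 51.4 CPM with it, without overlap, and its interval in replicate 1 held 0. Of 9 EGF family genes at 20 CPM or more, 1 was higher and 3 lower within both numbers. Of 15 Tgf-beta and YAP response genes, 1 was higher and 3 lower within both, and 11 were mixed. Over all genes 23.5% were higher and 25.3% lower within both. ANKRD1, a YAP target, stood at 11.4 and 97.0 CPM without Forskolin, against 11.9 and 4.90 CPM with it, so its difference lay in replicate 2.

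The remaining lists had few members or no common direction. Over all genes the shares were 23.5% higher and 25.3% lower within both numbers, and 9.81% above and 11.3% below without overlap. Of 11 mitochondrially encoded genes at 20 CPM or more, 6 were higher and 2 lower within both numbers, and of 9 genes of CDK inhibitors and cyclins D, 4 were higher and 1 lower. Of 9 follicle stem cell and outer root sheath genes, 1 was higher and 4 were lower within both; KRT17 stood above without overlap, and CXCL14 and DKK3 below. The follicle list summed to 5147 and 7105 CPM without Forskolin, against 4654 and 4392 CPM with it. Of 5 Notch genes 1 was higher and 1 lower, of 6 simple epithelium genes 1 was higher and 2 were lower, and of 2 genes of the hair shaft list both were higher. DSC2 was 1 of these 2, at 151.1 and 400.8 CPM without Forskolin, against 138.1 and 208.1 CPM with it. Its interval in replicate 1, from -0.40 to 0.66, held 0. Of 4 sebaceous gland and adipocyte genes 3 were higher and 0 lower, and ADIPOQ and PPARG had no count in the 4 libraries.

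The genes that passed 2-fold within both replicate numbers, at a mean of 50 CPM or more, were picked by their values and are given as a description. GJA1, the gap junction protein connexin 43, stood at 52.6 and 430.3 CPM without Forskolin, against 19.0 and 120.0 CPM with it, with log2 ratios of 1.47 (95% interval 0.26 to 2.84) and 1.84 (1.34 to 2.37). AKT1, a kinase of insulin and growth factor signalling, stood at 96.1 and 71.7 CPM without Forskolin, against 38.1 and 29.4 CPM with it, without overlap. OAS1 was the other gene above. On the lower side stood LOR, CXCL14, CDSN and ASPRV1, the autophagy gene ATG13, the BTB domain gene BTBD10 and 1 provisional locus. ATG13 stood at 22.9 and 80.2 CPM without Forskolin, against 61.9 and 208.1 CPM with it. BTBD10 stood at 25.2 and 25.3 CPM without Forskolin, against 61.9 and 90.6 CPM with it, without overlap. The smallest unadjusted p-values belonged to APLF, a DNA repair factor, with 0 CPM in both libraries without Forskolin, against 11.9 and 34.3 CPM with it, and to CYTH1, an exchange factor of ARF proteins. CYTH1 stood at 32.0 and 29.5 CPM without Forskolin, against 57.1 and 210.5 CPM with it.

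Markers of other cell types were scarce. The 7 of 21 immune genes in the tables summed to 4.58 and 0 CPM without Forskolin, against 7.14 and 14.7 CPM with it, and CSF1R, CD163 and TYROBP had no count in any of the 4 libraries. The 7 of 12 melanocyte genes summed to 6.87 and 4.22 CPM without Forskolin, against 4.76 and 2.45 CPM with it, with MLANA at 0 throughout. The 21 of 23 fibroblast and dermal papilla genes summed to 1282 and 932.4 CPM without Forskolin, against 1369 and 866.7 CPM with it, nearly all from SPARC, COL5A1 and COL5A2, while PDGFRA, PDGFRB and LUM were at 0 in all 4. DCN, decorin, stood at 2.29 and 12.7 CPM without Forskolin, against 0 and 0 CPM with it. The 10 of 16 endothelium and smooth muscle genes summed to 162.5 and 696.1 CPM without Forskolin, against 416.6 and 191.0 CPM with it, mostly from TAGLN, with CNN1, MCAM and ENG at 0 in all 4. ACTA2, smooth muscle actin, had 1 and 16 counts without Forskolin, against 0 and 0 with it. ACTA2, DCN, POSTN, a matrix protein, and ANKRD1 thus had their highest value in the library without Forskolin of replicate 2. There DCN rested on 3 counts and POSTN on 7. VWF, of the endothelium list, went the other way, with its highest value, 30.95 CPM, in the library with Forskolin of replicate 1. Of 4 fibroblast and dermal papilla genes at 20 CPM or more, 1 was higher and 2 lower within both numbers, against 23.5% and 25.3% over all genes. The library without Forskolin of replicate 2 also stood apart on the second component and had the fewest counts. The part of these genes in its other differences was not tested. In bulk RNA, fewer cells of a type and less RNA per cell cannot be told apart, and this holds for the envelope genes, OAS1 and the adhesion genes alike.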

How the data were processed

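The deposited tables give the authors' counts per gene, partly with fractions, and were handled like expected counts, rounded to whole numbers. Alignment with BWA 0.6.2-r126 to CanFam3.1 comes from the submitters' processing notes; the sources used here do not give the annotation, the counting tool, the strand setting or the handling of molecular barcodes. Entries naming no gene took 0.461 to 2.16% of the counts per library, and those turned into dates by a spreadsheet took 0.0655 to 0.181%. Both were dropped as genes, while the date entries stayed in the library totals used for scaling. All 23 libraries, 12 groups, were fitted with edgeR 4.0.16 (TMM scaling, default low-count filter, quasi-likelihood test, Benjamini-Hochberg) in R 4.3.3, with 11 residual degrees of freedom. DESeq2 1.42.0 and limma 3.58.1 were alternatives. CPM use TMM-scaled library sizes; SE is log2 change over the root of F. Same-numbered libraries deviated together from their group means, with correlations of 0.56, 0.61 and 0.70 in the 3 pairs of groups over 2381 genes. The labels do not say what the numbers mark. The main fit had no replicate term, so its log2 changes, SEs and p-values are unpaired. Values within each number stand beside that fit as a description.

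Members and the 30 gene lists (802 genes, 645 in the differentiation tables) were chosen with earlier results of these data known. Named genes are the 2 smallest p-values of each list, a fixed set that includes OAS1, ITGA3 and DKK3, genes called in an alternative, genes past 2-fold in both numbers, the 5 smallest p-values and further list members, the last 4 kinds added after their values were seen. CPM of different genes are not per length and were not compared between genes. Confidence intervals are at 95%.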

Additional observations from a re-analysis of the deposited data

How the results depend on the processing

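The number of genes called stayed at 0 under each setting except the 2 without a filter on low counts, which gave 18 and, with a replicate block, 10; the setting with the block and no filter, and a filter of at least 10 counts over the 4 libraries, which gave 0, were chosen after seeing the data. The replicate block, a term for the number of the 6 differentiation libraries only, gave 0 calls in the fit of 23 libraries. It gave 0 in that of the 6 differentiation libraries, changing no call. Without the filter it left 10 of the 18 called. Leaving out each library in turn gave 0 to 0 calls. At an unadjusted p under 0.05 the count ran from 20 in a fit of the 4 libraries alone to 762 without replicate 1 of the group with Forskolin, against 329. Of 1648 values of 108 named genes under 17 settings, 1565 kept direction and side of the threshold, 28 became called, all without the filter, and 55 changed sign, in 38 genes. Most sign changes came when a library was left out, a setting in which the comparison mixes replicate numbers and the lone library of a group is assumed to vary like the others. The log2 change then ran from -8.05 to 3.97 for ALOX12B, -4.62 to 4.91 for ASS1, -9.49 to 0.94 for ATP6V1C2, -9.82 to 6.56 for C17H1orf68, -6.16 to 3.93 for CD86, -4.62 to 0.80 for CDSN, -0.18 to 1.15 for COX1, -5.58 to 0.24 for CREM, -4.33 to 2.00 for CSTA, -0.22 to 1.21 for DSC2, -5.54 to 1.79 for EGLN3, -2.47 to 0.11 for ELOVL1, -6.77 to 0.89 for FLG, -0.42 to 3.61 for GJA1, -0.86 to 0.84 for ID1, -9.37 to 3.97 for IGF2, -0.47 to 0.14 for ITGA6 and -1.99 to 1.97 for IVL. It ran from -1.43 to 1.18 for JUNB, -0.51 to 0.45 for KRT10, -2.53 to 2.05 for KRT15, -1.55 to 1.64 for KRT16, -4.96 to 1.33 for KRT23, -0.22 to 0.91 for KRT6A, -4.21 to 1.62 for LOC102151682, -4.18 to 1.54 for LOC102151794, -6.88 to 0.15 for LOR, -3.67 to 5.43 for MITF, -1.65 to 0.36 for NQO1, -4.63 to 6.88 for POSTN, -0.19 to 7.12 for PRC1, -2.99 to 0.32 for PRDM1, -5.20 to 0.21 for RGS2, -0.55 to 0.89 for S100A8, -4.61 to 6.39 for SLBP, -8.91 to 0.72 for SLC16A3, -4.42 to 1.87 for SPINK9 and -0.88 to 0.01 for TP63. IVL, at -0.02, stood at 0.05 with DESeq2, with its size factors and in the 6 libraries on the same genes, 0.04 in the 6 libraries with their own filter and in the 4 alone, 0.03 in the 6 with a replicate block and 0.01 with the 10-count filter. KRT10, at 0.07, stood at -0.01 with the replicate block and -0.03 with it and no filter, and KRT15, at 1.14, at -0.05 with limma-voom. The cause of these changes was not tested. OAS1, CXCL14, DKK3 and ITGA3 kept their direction under every setting run, and were among 70 of the 108 named genes that never changed sign. In these 4 genes the groups did not overlap. Leaving out 1 library could thus hardly reverse them, so their steady direction is only a description. With 2 libraries a group and a median of 26 counts per gene over the 4 libraries, differences of genes with few counts were not detectable.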
